A study of Mus musculus with 34 samples.

Results

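The genes described here are 29 genes of cholesterol handling: 18 that make sterols, 4 that regulate the SREBP transcription factors, and 7 of the liver X receptor (LXR) and efflux branch. They were chosen by name, with earlier results of these data known. All 29 were found among the 32098 genes of each of 2 expression tables. The samples were 34 RNA-seq libraries from the stromal vascular fraction (SVF) of visceral, perigonadal white fat of male C57BL/6J mice. The SVF is the pellet left after collagenase digestion, when the adipocytes have floated off. It was treated with an erythrocyte lysing buffer. From 6 weeks of age the mice ate either a high fat diet (HFD, D12492, 60% of kcal from fat) or a control diet (CHOW, D12450B or D12450K). They carried no transgene in the labels and were fasted for 6 hours before harvest. After 8 weeks on diet (14 weeks of age) there were 4 CHOW and 6 HFD libraries. After 20 weeks (26 weeks of age) there were 5 CHOW and 6 HFD libraries, and after 34 weeks (40 weeks of age) 7 CHOW and 6 HFD libraries. The labels do not say whether each library came from 1 animal, so p-values measure the spread between libraries.

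Cells keep their cholesterol steady with opposing programmes. When sterols run low, SCAP carries the SREBP proteins out of the endoplasmic reticulum, where INSIG proteins otherwise hold them, and SREBP2 switches on the enzymes from acetyl-CoA to cholesterol. When oxysterols accumulate, LXR alpha (Nr1h3) and LXR beta (Nr1h2) switch on exporters and apolipoproteins. In obese visceral fat, macrophages that gather around dying adipocytes take up lipid and are known for high expression of lysosomal and LXR target genes.

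Promoter sequence was examined to see what the branches have in common apart from expression. RefSeq windows (GRCm38.p6) of 250 bases before to 50 after the start were found for 15 of the 18 synthesis genes, all 4 SREBP regulators and 6 of the 7 LXR and efflux genes. Fdps, Fdft1, Sqle and Abcg1 had none. On either strand, the NF-Y box CCAAT was in a window of 13 of the 15 synthesis genes and of 2 of the 6 LXR and efflux genes. Some genes have several starts, and counted by window it was in 13 of 18 and 2 of 9, against 37.4% of all 32851 windows. The Sp1 box GGGCGG was in 13 of 15 and 3 of 6 genes, or 14 of 18 and 3 of 9 windows, against 35.7% of all windows. A strict sterol regulatory element, TCACNCCAC, was in Hmgcs1 alone of these genes and in 1.24% of all windows. A direct repeat of the hexamer AGGTCA, as LXR binds, with 4 bases between the copies, and with G also allowed as its first letter and T as the third, was in no window of these genes and in 0.0822% of all. The motifs do not overlap in the sequences shown, and a match or its lack in these windows describes the letters only. The 150 bases before the start are shown for 2 synthesis genes, Hmgcs1 and Mvk, with 4 and 5 NF-Y boxes in their whole windows. They are also shown for 2 genes of the other branch that rose on HFD. NF-Y, Sp1 and SREBP matches are in capitals.
Hmgcs1, chr13:119690201-119690350, plus strand: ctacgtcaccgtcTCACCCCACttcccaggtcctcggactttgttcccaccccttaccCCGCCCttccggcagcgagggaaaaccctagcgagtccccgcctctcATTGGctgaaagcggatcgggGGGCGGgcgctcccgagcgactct
Mvk, chr5:114444119-114444268, plus strand: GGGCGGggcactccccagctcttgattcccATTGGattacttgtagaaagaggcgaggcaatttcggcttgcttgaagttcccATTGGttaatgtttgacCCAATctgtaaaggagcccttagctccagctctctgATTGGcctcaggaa
Abca1, chr4:53159896-53160045, minus strand: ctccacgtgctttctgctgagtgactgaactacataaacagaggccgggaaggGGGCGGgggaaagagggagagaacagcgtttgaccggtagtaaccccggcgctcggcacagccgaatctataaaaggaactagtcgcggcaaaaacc
Soat1, chr1:156474329-156474478, minus strand: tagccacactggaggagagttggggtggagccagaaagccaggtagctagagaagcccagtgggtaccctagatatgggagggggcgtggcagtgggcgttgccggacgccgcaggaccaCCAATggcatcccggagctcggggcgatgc
Hmgcs1 makes the precursor that enters the mevalonate route, and its element lies between 137 and 129 bases before the start. Its stretch shown holds 1 NF-Y box. Mvk, mevalonate kinase, holds 4 NF-Y boxes in the stretch shown. Abca1 holds 1 Sp1 box and no NF-Y box there, and Soat1 holds 1 NF-Y box.

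Expression was given by the authors in TPM, a length-corrected share with the same total in each library, so levels can be set side by side between genes. The 7 LXR and efflux genes together summed to 4458 ± 202 TPM (SD, n = 4) at 8 weeks on CHOW. Most of this was Apoe, the apolipoprotein that carries exported cholesterol, at 4065 ± 201 TPM. Not every gene of the branch was the more abundant, as Abcg1 was at 18.1 ± 5.00 TPM and the synthesis gene Ebp at 31.4 ± 6.51 TPM. The 18 synthesis genes together summed to 255 ± 32.3 TPM in the same libraries, and Lss, lanosterol synthase, was the lowest of them at 2.83 ± 0.902 TPM. All 29 genes passed the filter on low values (at least 1 TPM in at least 4 libraries at 8 and 20 weeks, and in at least 6 libraries at 34 weeks).

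Some libraries carried RNA of other sources. Hemoglobin and other erythroid markers summed to 267887 TPM in HFD 8 week replicate 6. They were high in all 6 groups, with mean sums of 74158 TPM on CHOW and 98080 TPM on HFD at 8 weeks. The means were 61828 and 16935 TPM at 20 weeks and 18072 and 19576 TPM at 34 weeks. The part of this share in the diet and time comparisons was not tested. Seminal vesicle markers summed to 124144 TPM in HFD 8 week replicate 3, and germ cell markers to 12651 TPM in HFD 20 week replicate 5. Germ cell markers also summed to 2380 and 2982 TPM in HFD 20 week replicates 3 and 4 and to 5142 and 5525 TPM in HFD 34 week replicates 1 and 2. Adipocyte markers had mean log2(TPM + 1) of 7.74, 9.93 and 8.18 in CHOW 34 week replicates 5, 6 and 7 and between 3.00 and 5.82 in the other 4 libraries of that group. Macrophage and progenitor markers were high in all 6 groups, with group means of log2(TPM + 1) from 7.83 to 8.28 and from 8.51 to 8.70. Read depth cannot be recovered from TPM and is unknown.

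The comparison of diets at 20 weeks asked which of the genes an established obesity alters. Genes of the LXR and efflux branch were higher on HFD, while the synthesis branch moved in both directions and the SREBP regulators did not pass the test. Of the 29 genes, 7 were called higher (24.1%) and 2 lower (6.90%) by limma with Benjamini-Hochberg adjustment over all 16808 genes tested, at a threshold of 0.05. Of all genes tested, 9.32% were called higher and 4.99% lower. In the LXR and efflux branch, limma called 5 of 7 genes higher (71.4%) and none lower, with a median log2 fold change of 0.85 on the log2(TPM + 1) scale, against 0.08 for all genes. The synthesis branch had 2 of 18 higher and 2 of 18 lower, with a median of 0.24. No overlap between the libraries of the diets was seen for 4 of the 29 genes that were higher and for 2 that were lower, beside 5.5% and 3.69% of all genes.

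Nr1h3 encodes LXR alpha, the receptor of the pair that is enriched in macrophages and metabolic tissues. Its levels at 20 weeks were 36.5, 40.4, 24.8, 23.3 and 34.1 TPM on CHOW, and on HFD the lowest was 49.2, the median 62.9 and the highest 81.2 TPM. Every HFD library was above every CHOW library, and the log2 fold change was 1.01 (SE 0.23, adjusted p 0.00703). Nr1h2, which encodes LXR beta, was more abundant but differed little, at 92.1 ± 4.56 TPM (n = 5) on CHOW and 103 ± 11.4 TPM (n = 6) on HFD (adjusted p 0.579).

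The transporters Abca1 and Abcg1 export cholesterol to apolipoprotein acceptors and to high density lipoprotein particles, respectively. Abcg1 (ENSMUSG00000024030.6, chr17:31057675-31117988, GRCm38) was at 11.9, 27.4, 9.26, 9.13 and 10.6 TPM on CHOW at 20 weeks, and between 33.6 and 82.8 TPM with a median of 52.3 TPM on HFD. The groups did not overlap, even though CHOW replicate 2 stood above the other 4 CHOW libraries. Its log2 fold change of 1.98 (SE 0.34, adjusted p 0.000802) was the largest among the 29 genes in this comparison. Abca1 (ENSMUSG00000015243.4, chr4:53030787-53159895), whose promoter is shown above, was at 65.0, 97.2, 59.1, 57.4 and 66.7 TPM on CHOW, and on HFD ranged from 90.0 to 183 TPM with a median of 121 TPM. The same CHOW library, replicate 2, overlapped the HFD range. The log2 fold change was 0.85 (SE 0.22, adjusted p 0.0164), and without CHOW replicate 4 the adjusted p was 0.0512.

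Soat1 esterifies cholesterol for storage in droplets and is thus a sink and not an exporter. It was at 74.1, 72.4, 45.7, 36.5 and 33.4 TPM on CHOW at 20 weeks, and from 81.2 to 159 TPM with a median of 121 TPM on HFD. Every HFD library was above every CHOW library (log2 fold change 1.24, SE 0.33, adjusted p 0.0169), and the call was lost without CHOW replicate 4 or 5 (highest adjusted p 0.0574). Apoe was at 4469, 5011, 3438, 4608 and 5229 TPM on CHOW, and from 5118 to 11849 TPM with a median of 6850 TPM on HFD. Its log2 fold change of 0.67 (SE 0.22, adjusted p 0.0485) was just past the threshold, and the call was lost in 8 of the 11 fits that each left out a library, with adjusted p up to 0.131. Mylip, a ubiquitin ligase by which LXR limits lipoprotein uptake, was at 101 ± 9.01 TPM on CHOW and 87.2 ± 20.2 TPM on HFD (adjusted p 0.503).

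**Figure D1:**
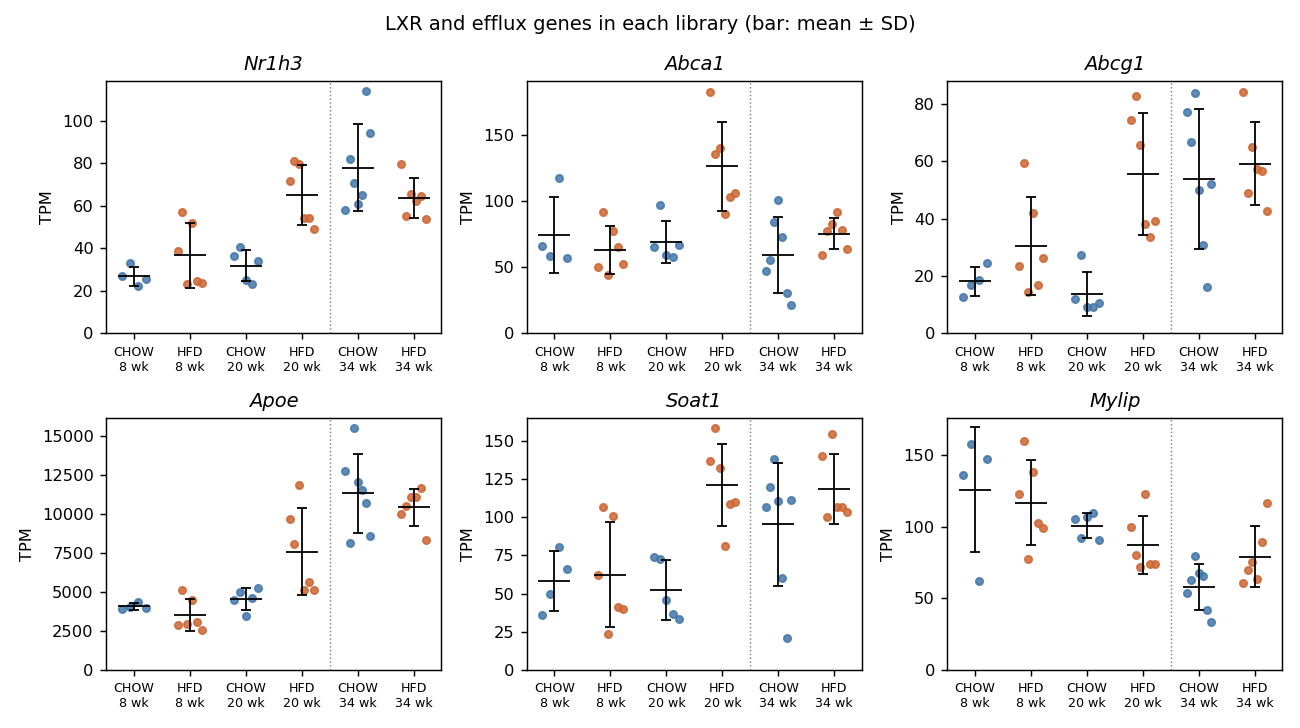
TPM of 6 LXR and efflux genes in each library (y axis) for the 6 groups (x axis), with 1 point per library (blue CHOW, orange HFD), bars for mean and SD, and a dotted line between the separately made tables. At 20 weeks the HFD libraries of Nr1h3, Abcg1 and Soat1 all lie above the CHOW libraries, and Mylip does not show this.

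Among the HFD libraries of 20 weeks, replicates 1, 2 and 3 were the highest of the 6 for Nr1h3, Abca1, Abcg1, Apoe and Soat1. Abcg1 was at 74.4, 82.8 and 65.5 TPM in those 3 and at 37.9, 33.6 and 39.1 TPM in replicates 4, 5 and 6. Apoe was at 9673, 8064 and 11849 TPM against 5127, 5635 and 5118 TPM. The same 3 libraries had the highest macrophage scores of the group (8.42 to 8.72, against 7.80 to 8.02), and the part of macrophage number in this spread was not tested.

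In the synthesis branch at 20 weeks, the 2 genes that rose act late in the pathway. Dhcr7 (ENSMUSG00000058454.15, chr7:143823145-143848410), the reductase that finishes cholesterol, was at 4.81, 9.83, 4.34, 5.96 and 3.25 TPM on CHOW, and from 10.1 to 11.9 TPM with a median of 11.6 TPM on HFD. The libraries did not overlap (log2 fold change 0.96, SE 0.26, adjusted p 0.0174), and the call was lost without CHOW replicate 5 (adjusted p 0.0621). Msmo1 (ENSMUSG00000031604.10, chr8:64718139-64733792), the oxidase that begins removal of methyl groups from lanosterol products, was at 17.4, 23.8, 9.92, 9.73 and 7.91 TPM on CHOW and from 19.9 to 26.4 TPM with a median of 23.1 TPM on HFD. CHOW replicate 2 lay inside the HFD range, and the log2 fold change of 0.80 (SE 0.24, adjusted p 0.0337) lost its call in 6 of 11 fits without 1 library.

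The 2 genes that fell encode enzymes that make acetoacetyl-CoA at the start of the route. Acat2, the cytosolic thiolase that joins acetyl-CoA units, was at 12.7, 15.7, 16.9, 15.8 and 17.4 TPM on CHOW, and from 9.35 to 11.4 TPM with a median of 10.2 TPM on HFD. All HFD libraries were below all CHOW libraries, by -0.55 on the log2 scale (SE 0.13, adjusted p 0.00708), and no fit without 1 library lost the call. Aacs, which activates acetoacetate for lipid synthesis, was at 20.2, 22.4, 20.0, 21 and 18.8 TPM on CHOW, and from 12.7 to 18.4 TPM with a median of 14.8 TPM on HFD. Those groups did not overlap either (log2 fold change -0.44, SE 0.13, adjusted p 0.0354), although 9 of 11 fits without 1 library lost the call.

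The 14 other synthesis genes did not pass at 20 weeks. The mevalonate entry enzyme Hmgcs1 was at 29.1 ± 7.01 TPM on CHOW and 36.6 ± 5.28 TPM on HFD (adjusted p 0.250). Squalene epoxidase (Sqle), a control step of the later pathway, was at 8.65 ± 3.44 and 13.9 ± 5.22 TPM (adjusted p 0.202). Squalene synthase (Fdft1) had means of 6.86 ± 2.05 and 15.2 ± 15.3 TPM, with 44.7 TPM in HFD replicate 5 and a median of 7.35 TPM on HFD. HFD replicate 4 was next, at 19.4 TPM, and at 34 weeks HFD replicates 1 and 2 were at 19.5 and 23.7 TPM against 7.16 to 8.37 TPM in the other 4 HFD libraries. All 4 libraries were among those with germ cell markers, as was HFD 20 week replicate 3, where Fdft1 was at 7.86 TPM, and the part of germ cell RNA in the Fdft1 values was not tested. Sterol desaturase (Sc5d) was at 16.3 ± 1.85 and 13.1 ± 2.68 TPM (adjusted p 0.203).

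Among the regulators, Srebf2, which encodes SREBP2, was at 52.7 ± 9.10 TPM on CHOW and 48 ± 5.04 TPM on HFD at 20 weeks (adjusted p 0.7). Srebf1, which encodes the SREBP1 forms that favour fatty acid genes, was at 28.2 ± 2.81 and 32.5 ± 4.38 TPM (adjusted p 0.431). Insig1, itself an SREBP target that feeds back on the pathway, was at 67.6 ± 16.7 and 62.7 ± 8.16 TPM (adjusted p 0.83), and Scap was at 22.7 ± 2.19 and 24.1 ± 2.49 TPM (adjusted p 0.729). The median log2 fold change of the 4 was 0.00.

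**Figure D2:**
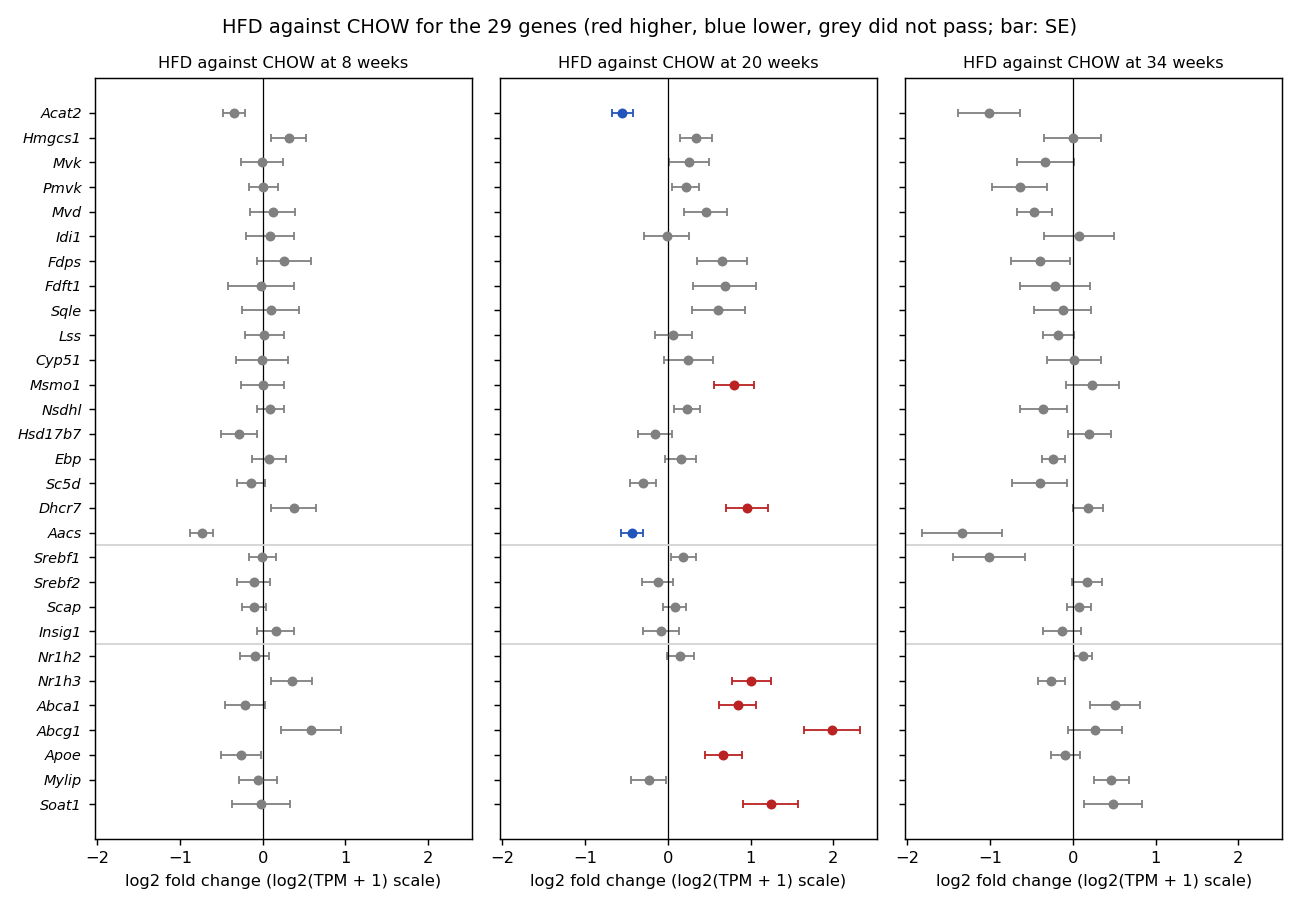
Log2 fold change of HFD against CHOW (x axis, log2(TPM + 1) scale, bars SE) for the 29 genes (y axis, by branch) at 8, 20 and 34 weeks, with red for higher, blue for lower and grey for genes that did not pass. Called genes appear only at 20 weeks, where Abcg1 has the largest value, 1.98.

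Markers of other cells moved with the diet at 20 weeks. All 8 lipid-associated macrophage markers, such as Trem2 and Gpnmb, were called higher on HFD, and their mean log2(TPM + 1) was from 5.96 to 8.55 on CHOW and from 9.05 to 9.74 on HFD. Of 10 macrophage markers, 4 were called higher and 1 lower, with summed levels of 3257 to 6766 TPM on CHOW and 5333 to 8812 TPM on HFD. Of 9 adipocyte markers tested, 1 was called higher and 7 lower, with summed levels of 240 to 468 TPM on CHOW and 129 to 250 TPM on HFD, while Cidea was at 0 in some libraries of both. All 6 mesothelial and all 5 erythroid markers were called lower. In a bulk pellet, more cells of a type and more RNA per cell cannot be told apart.

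With the macrophage score as a covariate, 7 of the 9 calls remained, namely Nr1h3, Abca1, Abcg1, Soat1, Dhcr7, Acat2 and Aacs, and those of Apoe (adjusted p 0.0848) and Msmo1 (adjusted p 0.0576) did not. With the lipid-associated macrophage score as a covariate, a fit added after seeing the data, none of the 29 genes was called. The median log2 fold change of the LXR and efflux branch was then -0.16, with Abca1 at -0.16 and Soat1 at -0.53, and 29 of all 16808 genes were called. With the adipocyte score, none of the 29 and 105 of all genes were called. The lipid-associated macrophage score did not overlap between the diets at 20 weeks, and the adipocyte score (3.78 to 4.47 on CHOW, 3.07 to 3.81 on HFD) barely did, so score and diet largely cannot be told apart in those fits. The log2 fold changes of Acat2 and Aacs, which fell, were -0.63 and -0.64 with the lipid-associated macrophage score (adjusted p 0.254 and 0.264) and -0.63 and -0.43 with the adipocyte score (adjusted p 0.107 and 0.270).

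At 8 weeks no member was called (2 of 29 had an unadjusted p under 0.05), beside 0.0238% of all genes, or 4 of 16808. Aacs was the nearest. It was at 17.7, 25.3, 22.1 and 23.1 TPM on CHOW, and from 9.22 to 16 TPM with a median of 13 TPM on HFD. The libraries did not overlap, and the log2 fold change of -0.74 (SE 0.14) had an adjusted p of 0.0653. The adjusted p ranged from 0.0141 to 0.380 over alternative settings and from 0.0212 to 0.297 when 1 library was left out. Adipocyte markers were lower with it, with a median log2 fold change of -0.88 (0 of 9 called) and sums of 484 to 1069 TPM on CHOW and 259 to 633 TPM on HFD. Aacs had a log2 fold change of -0.73 once that score was a covariate (adjusted p 0.143).

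At 8 weeks 2 of the 7 LXR and efflux genes had a positive fold change, with a median of -0.06, against -0.08 for all genes. Abcg1 was at 12.6, 16.7, 18.5 and 24.6 TPM on CHOW and from 14.4 to 59.2 TPM with a median of 24.8 TPM on HFD. HFD replicates 2 and 4 were highest, at 59.2 and 41.8 TPM, and they were also the highest for Nr1h3 (57.3 and 51.8 TPM), Apoe (5144 and 4452 TPM) and Soat1 (107 and 101 TPM). Those 2 libraries had the highest lipid-associated macrophage scores of the group, 8.67 and 8.42, and the part of those cells in the values was not tested. HFD replicate 3, the one with seminal vesicle RNA, had the lowest synthesis score (3.17) and the lowest LXR and efflux score (6.03) of the group.

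The question of change with time was put separately on each diet. On HFD, 4 of 29 genes were higher at 20 than at 8 weeks and none was lower, and all 4 were of the LXR and efflux branch. Of all genes 6.12% were called higher and 2.65% lower. The median log2 fold change of the branch was 0.93, that of the synthesis genes 0.14 and that of all genes 0.09. Ages, collection days and time on diet cannot be told apart.

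Apoe rose from 3505 ± 1040 TPM (n = 6) to 7578 ± 2782 TPM (n = 6), a log2 difference of 1.08 (SE 0.21, adjusted p 0.00284). Abca1 rose from 63.2 ± 18.3 to 126 ± 34.0 TPM (0.99, SE 0.21, adjusted p 0.00529). Nr1h3 rose from 36.6 ± 15.2 to 65.0 ± 14.2 TPM (0.88, SE 0.22, adjusted p 0.0166), and Soat1 from 62.4 ± 34.4 to 121 ± 27.0 TPM (1.11, SE 0.31, adjusted p 0.0321). For each of these genes at least 1 library of 8 weeks reached into the range of 20 weeks. Abcg1, at 30.3 ± 17.1 and 55.6 ± 21.3 TPM, did not pass (0.93, adjusted p 0.0734).

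HFD 8 week replicates 3 and 6 and HFD 20 week replicate 5 had the largest seminal vesicle, erythroid and germ cell sums, respectively. Without these libraries, Apoe (adjusted p 0.0190) and Abca1 (adjusted p 0.0393) remained called over time on HFD. Nr1h3 (adjusted p 0.0956) and Soat1 (adjusted p 0.183) did not. The same libraries' removal left 9 of 29 genes called between the diets at 20 weeks. Such RNA was not all removed, as HFD 20 week replicates 3 and 4 (germ cell) and CHOW 20 week replicate 5 (erythroid, 130027 TPM) were kept. Of the lipid-associated macrophage markers, 7 of 8 were called higher at 20 than at 8 weeks on HFD, and 7 of 9 adipocyte markers lower. With either of those scores as a covariate, none of the 4 LXR and efflux calls over time remained. On HFD the lipid-associated macrophage score was 6.93 to 8.67 at 8 weeks and 9.05 to 9.74 at 20 weeks. The adipocyte score was 3.90 to 5.23 and 3.07 to 3.81. Neither score overlapped between the times, so score and time largely cannot be told apart in those fits. With the macrophage score, 3 of the 7 LXR and efflux genes were called higher at 20 than at 8 weeks.

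On CHOW no member was called between 8 and 20 weeks (0 of 29 also at an unadjusted p under 0.05), beside 0.613% of all genes called. Nr1h3 was at 26.8 ± 4.56 TPM (n = 4) and 31.8 ± 7.46 TPM (n = 5), and Abcg1 at 18.1 ± 5.00 and 13.6 ± 7.77 TPM. Whether the diet effect itself differed between the times was tested as an interaction, in which 0 of 29 genes and 0.297% of all genes were called. Without adjustment, 5 of 29 had a p under 0.05. They were Abca1 (interaction 1.06 on the log2 scale, SE 0.33, adjusted p 0.210), Abcg1 (1.40, adjusted p 0.279), Soat1 (1.27, adjusted p 0.298), Apoe (0.93, adjusted p 0.270) and Msmo1 (0.80, adjusted p 0.343). A diet effect of the branch that differs between 8 and 20 weeks was thus not shown after adjustment.

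**Figure D3:**
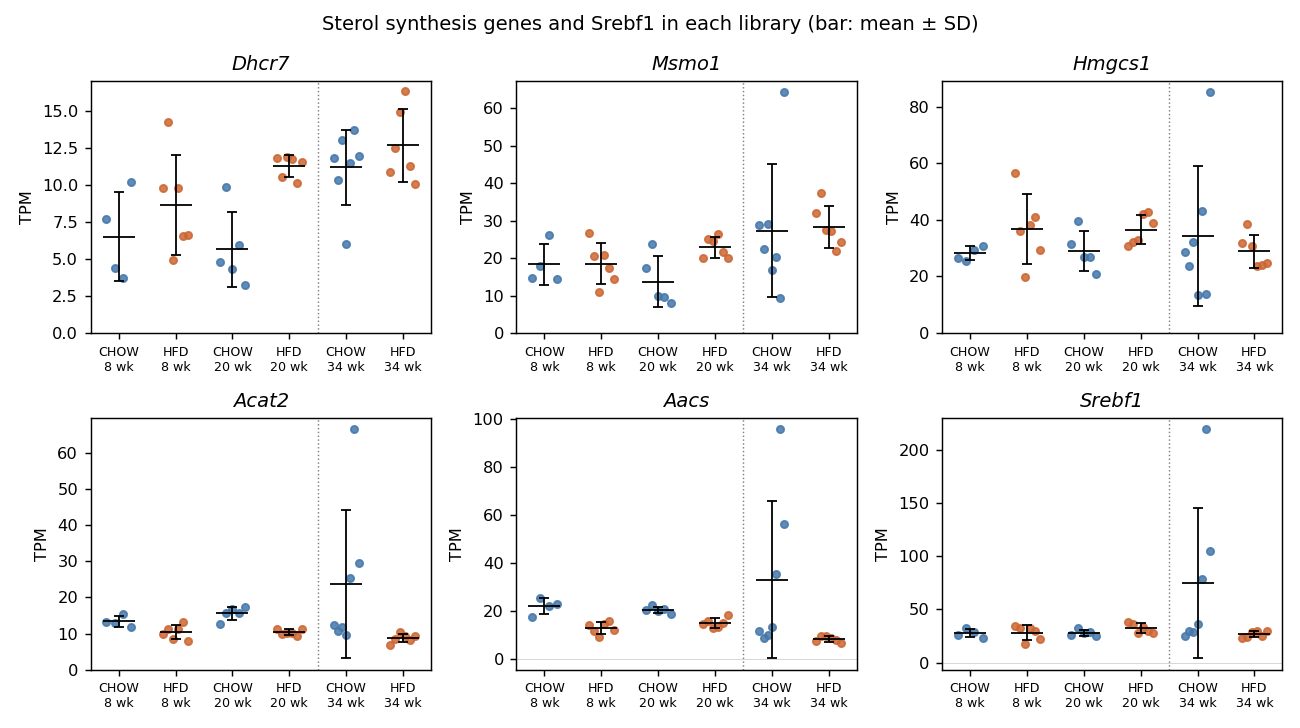
TPM of 5 sterol synthesis genes and Srebf1 in each library (y axis) for the 6 groups (x axis), with 1 point per library (blue CHOW, orange HFD), bars for mean and SD, and a dotted line between the separately made tables. Acat2, Aacs and Srebf1 are highest in 3 CHOW libraries of 34 weeks, with Srebf1 reaching 219 TPM.

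At 34 weeks no member was called between the diets (5 of 29 had an unadjusted p under 0.05), beside 0.243% of all 13982 genes tested. Of the 7 LXR and efflux genes, 5 had a positive fold change, with a median of 0.27 beside 0.10 for all genes. Abcg1 was at 53.7 ± 24.4 TPM (n = 7) on CHOW and 59.1 ± 14.5 TPM (n = 6) on HFD, and Nr1h3 was at 77.9 ± 20.5 and 63.6 ± 9.38 TPM. Apoe was at 11327 ± 2531 and 10444 ± 1186 TPM. The storage enzyme Soat1 and the exporter Abca1 had lower means on CHOW. Soat1 was at 95.4 ± 40.4 and 119 ± 22.8 TPM, and Abca1 at 58.8 ± 28.9 and 75.4 ± 12.0 TPM. Soat1 was at 60.1 TPM or less in CHOW replicates 5 and 6 and at 107 TPM or more in the other CHOW libraries. In CHOW replicates 6 and 7 Abca1 was at 30.5 TPM or less and Nr1h3 at 94.6 TPM or more. In the other CHOW libraries Abca1 was at 47.2 TPM or more and Nr1h3 at 82.0 TPM or less. CHOW replicates 5, 6 and 7 had high adipocyte markers, and their part in these means was not tested by itself. Mylip was at 57.7 ± 16 and 79.2 ± 21.1 TPM (adjusted p 0.358), and Nr1h2 at 74.8 ± 8.01 and 81.6 ± 9.88 TPM. These levels stand in a table made apart from that of the earlier times and were not tested against it. The lipid-associated macrophage score at 34 weeks was 8.48 ± 1.18 on CHOW, with 1 library at 6.13, and 9.41 ± 0.331 on HFD.

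In the synthesis branch at 34 weeks, the 3 CHOW libraries with high adipocyte markers, replicates 5, 6 and 7, stood out for several genes. Aacs on CHOW had a lowest value of 8.93, a median of 13.1 and a highest of 95.8 TPM, and the 3 libraries were at 35.2, 95.8 and 56.2 TPM. On HFD it ranged from 6.57 to 9.67 TPM. Acat2 was at 25.3, 66.6 and 29.6 TPM in those 3 and from 9.52 to 12.4 TPM in the other 4. Srebf1 was at 79.0, 219 and 104 TPM against 25.0 to 36.7 TPM in the other 4 and 23.2 to 29.6 TPM on HFD.

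The log2 fold changes at 34 weeks were -1.34 for Aacs (adjusted p 0.273), -1.01 for Acat2 (adjusted p 0.277) and -1.01 for Srebf1 (adjusted p 0.336). A further fit left out those CHOW libraries together with HFD replicates 1 and 2, which had germ cell markers. It therefore does not isolate the part of the CHOW libraries. The fold changes of Aacs, Acat2 and Srebf1 in it were -0.37 (adjusted p 0.424), -0.23 (adjusted p 0.532) and -0.08 (adjusted p 0.847). With the adipocyte score as a covariate they were -0.25, -0.14 and -0.05.

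Those CHOW libraries differed among themselves in which synthesis genes were high. In replicate 6, with the highest adipocyte score, Acat2, Pmvk (phosphomevalonate kinase, 116 TPM) and Nsdhl (a sterol dehydrogenase, 40.7 TPM) were the highest of the group. Hmgcs1 there was at 13.7 TPM, Msmo1 at 9.40 TPM and Srebf2 at 19.4 TPM, the latter 2 the lowest of the group. In replicate 7, Hmgcs1 (85.4 TPM), Idi1 (an isomerase of the isoprenoid step, 43.2 TPM), Sqle (28.9 TPM), Cyp51 (lanosterol demethylase, 44.7 TPM) and Msmo1 (64.4 TPM) were the highest of the group, as was Srebf2 at 51.0 TPM. Insig1 was also highest there, at 101 TPM.

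The branches were also set against each other as scores, the mean log2(TPM + 1) over the genes of a branch, which are descriptions with no test. The LXR and efflux score was 6.63 ± 0.0930 on CHOW and 6.67 ± 0.508 on HFD at 8 weeks, 6.55 ± 0.242 and 7.36 ± 0.287 at 20 weeks, and 7.07 ± 0.333 and 7.28 ± 0.101 at 34 weeks. The lowest HFD library at 20 weeks, at 7.07, was above the highest CHOW library, at 6.93. The synthesis score was 3.69 ± 0.152 and 3.68 ± 0.358 at 8 weeks, 3.57 ± 0.307 and 3.80 ± 0.154 at 20 weeks, and 4.03 ± 0.565 and 3.75 ± 0.183 at 34 weeks, with overlapping libraries each time. The difference, LXR and efflux minus synthesis, was 2.94 ± 0.151 and 2.98 ± 0.427 at 8 weeks, 2.98 ± 0.193 and 3.56 ± 0.423 at 20 weeks, and 3.04 ± 0.825 and 3.53 ± 0.251 at 34 weeks. The diets overlapped in this difference at each time. At 20 weeks CHOW replicate 5, at 3.317, lay above HFD replicates 4, 5 and 6, at 3.228, 3.033 and 3.316. The other CHOW libraries were at 2.98 or less. At 34 weeks CHOW replicates 5, 6 and 7, with high adipocyte markers, were at 3.03, 2.07 and 1.79. CHOW replicates 1 to 4 were at 3.21 to 4.03 and the HFD libraries at 3.08 to 3.84. The part of the adipocyte-rich libraries in the 34 week means was not tested.

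**Figure D4:**
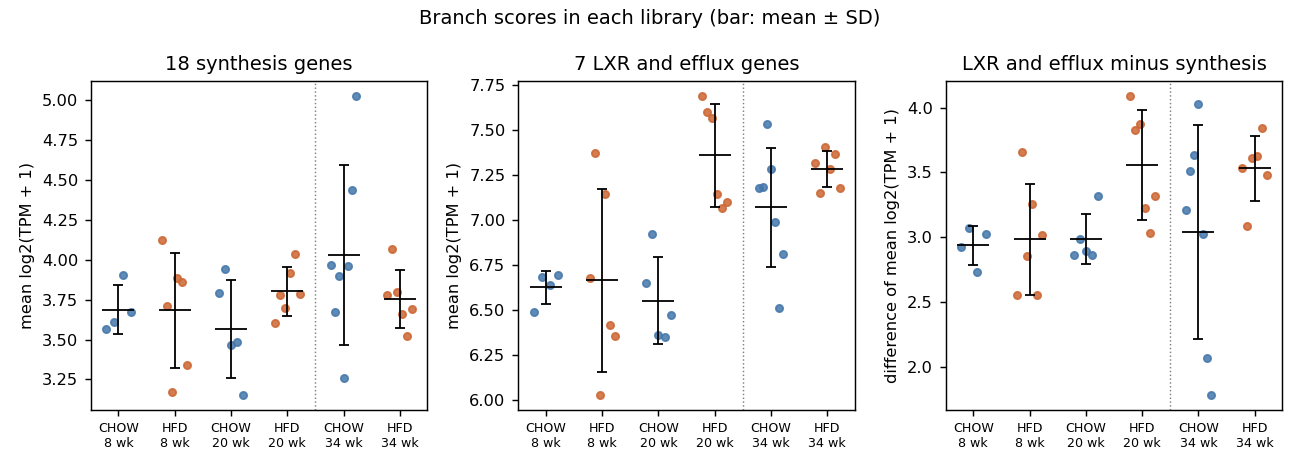
Mean log2(TPM + 1) of the 18 synthesis genes, of the 7 LXR and efflux genes and their difference (y axes) in each library of the 6 groups (x axis), with bars for mean and SD and a dotted line between the separately made tables. The LXR and efflux scores of the diets are apart at 20 weeks (7.07 or more on HFD, 6.93 or less on CHOW), and the synthesis scores overlap at every time.

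Variation within groups was described by correlations between genes. After the group means were removed, the median Pearson r over the 153 pairs of synthesis genes was 0.41 across the 21 libraries of 8 and 20 weeks, and 148 pairs were positive. For the 21 pairs of LXR and efflux genes it was 0.60 (20 positive), for the 6 pairs of regulators 0.75 (6 positive), and for the 126 pairs between the synthesis and LXR branches 0.22 (97 positive). Insig1 followed the synthesis score with r of 0.85. At 34 weeks, over 13 libraries, the medians were 0.52 (129 of 153 pairs positive) for synthesis and 0.23 (13 of 21) for LXR and efflux. They were -0.11 (2 of 6) for the regulators and -0.30 (40 of 126) between the synthesis and LXR branches. The r between the branch scores was -0.65, against 0.37 at 8 and 20 weeks. Of the 13 libraries, CHOW replicates 6 and 7 had the highest synthesis scores, 4.44 and 5.03. They also had the lowest LXR and efflux scores, 6.51 and 6.82. Their part in the r values of 34 weeks was not tested.

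Cell marker scores varied along with the branch scores. That of the LXR and efflux genes had r of 0.87 with the macrophage score and 0.80 with the lipid-associated macrophage score over the 21 libraries, and 0.85 and 0.74 over the 13. With the adipocyte score its r was -0.61 and -0.72. The synthesis score had r of -0.23 with the adipocyte score over the 21 libraries and 0.75 over the 13, and of 0.50 and -0.52 with the macrophage score. Points of such correlations share the library, its cell mixture and the closed total of TPM, so no p is given.

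**Figure D5:**
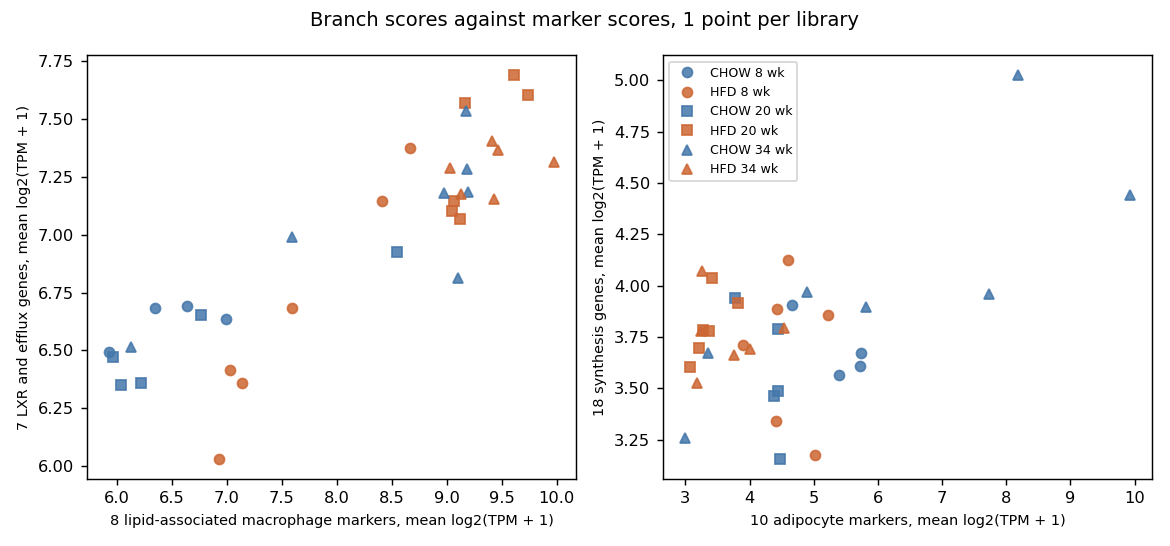
LXR and efflux score against the lipid-associated macrophage score (left) and synthesis score against the adipocyte score (right), all as mean log2(TPM + 1), with 1 point per library, blue for CHOW, orange for HFD, and circles, squares and triangles for 8, 20 and 34 weeks. In the left panel most points rise together, and CHOW 34 week replicate 7 lies low at 6.82 for a lipid-associated macrophage score of 9.11. In the right panel the 2 highest synthesis scores, 4.44 and 5.03, are CHOW libraries of 34 weeks with adipocyte scores of 9.93 and 8.18.

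Other genes of the pathway were read from lists that, like the members, were chosen with earlier results of these data known. The shares of all genes are given for scale, and an excess over them was not tested. Of 12 genes of uptake, the lysosome and ester hydrolysis, 4 were called higher (33.3%) and none lower on HFD at 20 weeks, beside 9.32% and 4.99% of all genes. Lipa, the lysosomal acid lipase that frees cholesterol from lipoprotein esters, was at 76.1 to 204 TPM on CHOW and 343 to 653 TPM on HFD (log2 fold change 2.13, SE 0.28, adjusted p 8.16e-05). Nceh1, which hydrolyses cholesterol esters, was at 20.9 ± 8.47 and 69.5 ± 15 TPM (1.74, adjusted p 0.000717). Stard3, which binds cholesterol at late endosomes, was at 21.7 ± 6.65 and 40.1 ± 5.35 TPM (0.89, adjusted p 0.00526). The fourth, Lrp1, an endocytic receptor named after its values were seen, had 0.66 (adjusted p 0.0191), and the other 8 did not pass. With the lipid-associated macrophage score as a covariate Stard3 was at -0.17 and Lrp1 at -0.22.

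Of 10 further LXR genes, 9 were tested, of which 3 rose (33.3%) and 1 fell (11.1%) at 20 weeks, beside the same 9.32% and 4.99% of all genes. Lpl, lipoprotein lipase, was at 471 ± 270 TPM on CHOW and 1664 ± 258 TPM on HFD (1.94, adjusted p 0.000376), and Smpdl3a, a phosphodiesterase, at 89.3 ± 13.4 and 166 ± 18.6 TPM (0.89, adjusted p 0.000491). Apoc1, an apolipoprotein gene next to Apoe, fell from 23.4 ± 8.45 to 6.76 ± 2.84 TPM (-1.69, adjusted p 0.00591). Of 11 further sterol synthesis and SREBP2 genes, 2 rose (18.2%) and 1 fell (9.09%). Tmem97, the sigma 2 receptor, was at 9.32 ± 4.21 TPM on CHOW and 37.8 ± 35.9 TPM on HFD (1.65, adjusted p 0.00985). Its median on HFD was 25.1 and its highest value 109 TPM, and the part of germ cell RNA in this spread was not tested. Mbtps2, a protease that releases SREBPs, had 0.79 (adjusted p 0.0250), and Lbr, a sterol reductase, had -0.46 (adjusted p 0.0438). Lbr lost its call in 8 of 11 fits without 1 library.

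Of 12 genes of fatty acid synthesis, the other SREBP programme, none was called higher and 2 were called lower (16.7%) on HFD at 20 weeks, with a list median of -0.33 beside 0.08 for all genes. Fasn, fatty acid synthase, fell from 36.8 ± 5.05 to 23.1 ± 3.62 TPM (-0.66, adjusted p 0.0234), and Thrsp, a lipogenic regulator, from 32.1 ± 6.97 to 11.5 ± 5.23 TPM (-1.46, adjusted p 0.00334). On HFD, 3 of the 12 were lower at 20 than at 8 weeks, beside 2.65% of all genes, with Thrsp at -1.68 (adjusted p 0.000801), Scd1, a desaturase, at -1.64 (adjusted p 0.00102) and Elovl5, an elongase, at -0.49 (adjusted p 0.0323). Adipocytes are known to express these genes, 7 of 9 adipocyte markers were also lower, and their part in these values was not tested. At 8 and 34 weeks no gene of the 4 further lists was called between the diets.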

How the data were processed

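RNA-seq was done on SVF with stranded mRNA libraries. In the study's methods, reads passed FastQC, MultiQC and Trimmomatic, and Salmon quantified gencode M10 protein coding and long non-coding transcripts (mm10, tool versions not given in the sources used here). From these the authors deposited gene sums in TPM, in 1 table of 21 libraries (8 and 20 weeks) and 1 of 13 (34 weeks). The authors' own DESeq2 test used counts, which are not analysed here.

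IDs were matched to gencode M21 symbols (31791 of 32098), whose GRCm38 gene limits may differ from those of M10. Values were taken as log2(TPM + 1), and that scale understates changes of low genes. limma 3.58.1 in R 4.3.3 was fitted with 1 mean per group and a mean-variance trend, per table, two-sided. The script was tested on simulated data. The members and lists were chosen with earlier results of these data known. All 29 members may be named, and of each further list up to 3 called genes with the largest fold. Groups and replicate numbers came from the titles. Alternatives were another pseudocount, filters, scalings, weights, a replicate block, marker scores, left-out libraries and fits of only the compared groups. Same-numbered libraries were not treated as paired. Their deviations from group means had r from -0.10 to 0.40, and r was over 0.1 for 4 of 6 numbers on HFD over time.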

Additional observations from a re-analysis of the deposited data

Results flagged for a closer look

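Single libraries that lay far from the rest of their group (by Dixon's criterion) were found in 23 of 174 combinations of gene and group. Chance gives about 1 in 20 for independent combinations, but these genes share libraries. Of the 23, 6 were in CHOW 34 week replicate 7 and 4 in CHOW 34 week replicate 6. An excess over chance was not tested. CHOW 34 week replicate 7 was high for Hmgcs1 (85.4 TPM), Idi1 (43.2 TPM), Sqle (28.9 TPM), Cyp51 (44.7 TPM), Msmo1 (64.4 TPM) and Hsd17b7 (8.32 TPM). CHOW 34 week replicate 6 was high for Acat2 (66.6 TPM), Pmvk (116 TPM), Nsdhl (40.7 TPM) and Srebf1 (219 TPM). Both had high adipocyte markers, and the part of adipocyte RNA in these values was not tested gene by gene. CHOW 20 week replicate 2 was high for Srebf2 (68.5 TPM), Abca1 (97.2 TPM) and Abcg1 (27.4 TPM), and it had the highest lipid-associated macrophage score of its group, 8.55. CHOW 8 week replicate 3 was high for Mvk (17 TPM), Cyp51 (20.4 TPM) and Abca1 (117 TPM).

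The remaining such values were Lss at 4.18 TPM in CHOW 8 week replicate 2 and at 6.06 TPM in CHOW 20 week replicate 1, and Srebf2 at a low 37.9 TPM in CHOW 8 week replicate 4. Scap was at a low 12.9 TPM in HFD 8 week replicate 3, the library with seminal vesicle RNA. Mvd was at 11.1 TPM in HFD 20 week replicate 2, Fdft1 at 44.7 TPM in HFD 20 week replicate 5 and Idi1 at 17.5 TPM in HFD 34 week replicate 2.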

How the results depend on the processing

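The 9 of 29 genes called between the diets at 20 weeks became 0 with the adipocyte score and 0 with the lipid-associated macrophage score as covariates, and from 4 to 9 when 1 library was left out, with 4 without CHOW replicate 4 and 4 without CHOW replicate 5. The 4 called on HFD over time became 0 and 1 (Mvd, lower) with those scores and 3 with the macrophage score. They became from 3 to 6 when 1 library was left out. They became 2 without HFD 8 week replicates 3 and 6 and HFD 20 week replicate 5. At 8 weeks, where 0 were called, 1 gene (Aacs) was called with sample quality weights, 1 with the macrophage score, 1 with the lipid-associated macrophage score, and from 0 to 1 without 1 library (HFD replicate 3 or 5). The counts for 34 weeks, CHOW over time and the interaction stayed at 0 under every alternative run. With the replicate block, 9 were called at 20 weeks, 5 on HFD over time and 0 in the other 4 comparisons. The labels do not link same-numbered libraries to each other. Signs turned for Soat1 on HFD over time with the adipocyte score (-0.11). With the lipid-associated macrophage score they turned at 20 weeks for Msmo1 (-0.36), Dhcr7 (-0.021), Abca1 (-0.16), Soat1 (-0.53), Lrp1 (-0.22) and Stard3 (-0.17), and on HFD over time for Soat1 (-0.033) and Msr1 (-0.12). The cause was not tested. All other signs of called genes held. Depth is unknown, and TPM is a closed total.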
